A study of Mus musculus with 4 samples.

Results

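Genes for the outer dense fibres and the fibrous sheath of the sperm tail were followed in polyadenylated RNA of mouse testis cells labelled as pachytene spermatocytes. The set was chosen by name: Odf1, Odf2, Odf3 and Odf4 of the outer dense fibres, and Akap3, Akap4, Fscb, Ropn1 and Ropn1l of the fibrous sheath. Of these 9 names, 8 had a row among the 50763 rows of the count table. Odf3 had none under that symbol. Cimap1a, which is the current symbol of the same gene, did have a row and is described beside the 8 without being counted among them. There were 2 libraries labelled wild type (WT) and 2 labelled Hsf5 knockdown. The labels call the replicates biological and the cells meiotic cells of the testis. They name no strain or age, and how the knockdown was made is not given in the sources used here.

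The mammalian sperm tail carries accessory structures around its microtubule core. Outer dense fibres are stiff keratin-like cables that run along the axoneme through the middle and principal pieces. The fibrous sheath encloses the principal piece as a pair of longitudinal columns joined by ribs, and it anchors protein kinase A and enzymes of glycolysis. These structures are built in spermatids, after meiosis, and transcripts of several of their components are known to appear late in the development of male germ cells.

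The libraries held 33287428 to 42479164 counts assigned to genes. Hsf5 itself stood at 586 and 449 CPM (counts relative to the library total, scaled with TMM factors) in WT replicates 1 and 2 and at 287 and 238 CPM in the knockdown, and its fall (log2 fold change -0.98, SE 0.31; edgeR quasi-likelihood test, adjusted p = 0.0217) was not past the threshold with library totals only (-0.55, adjusted p = 0.115), when WT replicate 1 was left out (-0.79, adjusted p = 0.219) or when WT replicate 2 was (-1.13, adjusted p = 0.0725). The groups also differed in markers of other cells. All 19 measured spermatid markers fell, with a summed level of 5017 and 2578 CPM in WT and 235 and 139 CPM in the knockdown. Over all tested genes, 33.5% were called lower and 27.4% higher. Of the spermatid markers, Prm2, Prm3, Smcp and Cypt4 had no count in the knockdown, and Gkap1 (1138 and 712 CPM in WT) and Prm2 (687 and 401 CPM) had the highest mean levels. Markers with no or hardly any counts in the knockdown entered the test through WT alone, so they could only be called lower. All 14 Sertoli cell markers rose (209 and 483 CPM in sum in WT, 4447 and 5068 CPM in the knockdown), as did all 9 Leydig cell markers (125 and 851 CPM against 1537 and 3107 CPM). Clu (110 and 301 CPM in WT, 2506 and 3007 CPM in the knockdown) and Amhr2 led the Sertoli list, and Cyp17a1 (34.3 and 243 CPM, then 372 and 837 CPM) and Insl3 the Leydig list. Among 23 pachytene markers 8 rose, 10 fell and 5 did not pass, and Sycp1, of the synaptonemal complex, went from 297 and 215 CPM to 661 and 576 CPM, while the most abundant, Ybx3 and Piwil1, fell. No pachytene marker was at 0. Of 14 leptotene and zygotene markers 9 rose and 2 fell, among them Spo11 (-1.41), while Ankrd31 did not pass. Of 15 spermatogonial markers 11 rose, Uchl1 among them, and Ddx4 did not pass. Of 5 myoid markers 3 rose, with Acta2, and 1, Actg2, fell. Of 11 immune, endothelial and blood markers 8 rose, Lyz2 and Csf1r among them. The 11 summed to 18.2 and 25.0 CPM in WT and to 135 and 79.1 CPM in the knockdown. The part of these differences in cell markers in the results below was not tested. In such bulk samples, fewer cells of a type and less RNA per cell cannot be told apart.

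All 8 measured genes were lower in the knockdown and none was higher, where 33.5% of the 23594 genes tested over the whole table were called lower and 27.4% higher (edgeR quasi-likelihood test, Benjamini-Hochberg adjusted p below 0.05). With library totals only, 6680 genes were lower and 8121 higher in place of 7902 and 6467. With scaling by genes of cohesin and the synaptonemal complex these numbers were 9024 and 2894, and all 8 were called lower each time. Of the 23 such scaling genes tested, 11 were themselves called higher and 2 lower in the main fit, with a median log2 fold change of 0.87. Scaling on them therefore shifts the fold changes of all genes down. For all 8 each knockdown library was under each WT library, which held for 43.7% of tested genes. The fitted falls differed widely within the set. Ropn1l fell 6.96-fold and Odf2 10.1-fold, Akap3 fell 70.5-fold, and the other 5 were at or near zero counts in the knockdown. Of the 8 genes 7 were at least 8-fold lower, compared with 19.6% of all tested genes, and 6 were at least 64-fold lower, compared with 9.17%. The median log2 fold change was -10.62 over the 8, also with genes at zero set to their bound, and -0.12 over all tested genes. Odf1, Odf4, Akap4, Fscb and Ropn1 passed the filter on low counts through their WT libraries alone, so a gene of that kind could pass only with a difference.

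**Figure D1:**
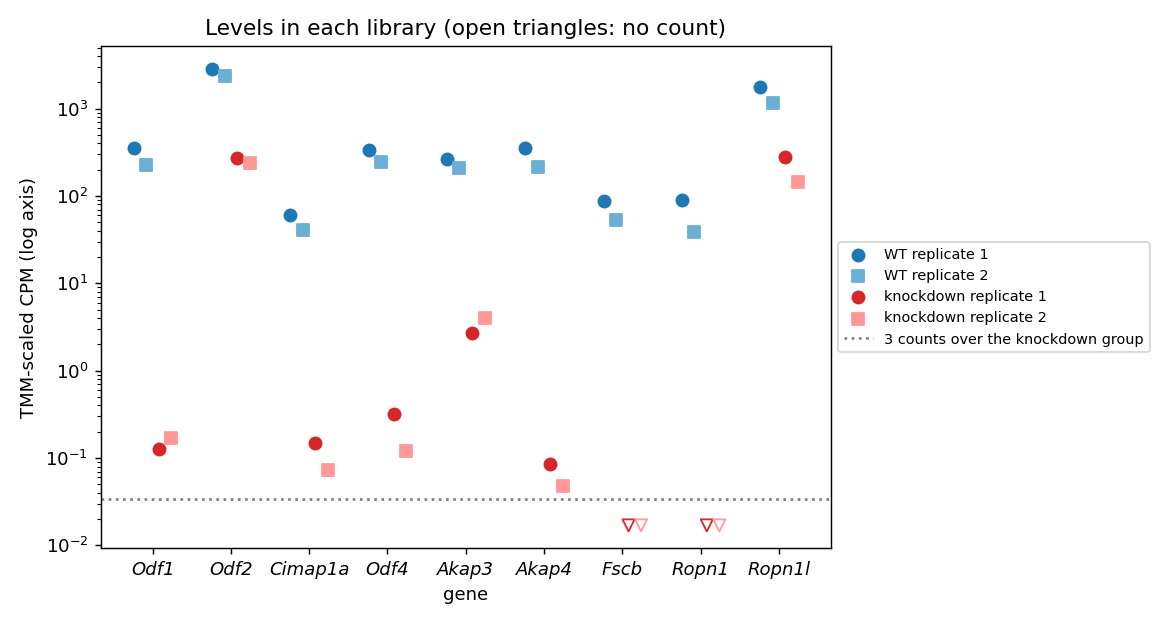
TMM-scaled CPM on a log axis for each gene in each of the 4 libraries, with open triangles for a library without a count and a dotted line at the level of 3 counts over the knockdown group. Odf2 and Ropn1l kept levels between 144 and 279 CPM in the knockdown, Akap3 2.71 and 4.0 CPM, and the others lay below 0.4 CPM.

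Among the outer dense fibre genes, Odf1 had one of the deepest falls. Odf1 encodes the cysteine-rich core protein of the fibres, a member of the small heat shock protein family. It had 357 and 225 CPM in WT and 0.127 and 0.170 CPM in the knockdown, from 11991 and 6477 counts against 6 and 7 counts. The WT libraries were far above the knockdown libraries, and the log2 fold change was -10.92 (SE 0.51; edgeR, adjusted p = 4.86e-06). Odf4, which encodes a membrane protein of the sperm tail, behaved much the same, with 338 and 245 CPM in WT and 0.318 and 0.121 CPM in the knockdown. Its log2 fold change was -10.33 (SE 0.54; edgeR, adjusted p = 5.25e-06). This value rests on 15 and 5 counts in the knockdown, and it was -11.11 when knockdown replicate 1 was left out. Cimap1a, a protein of the tail whose older name is Odf3, went from 61.0 and 40.6 CPM to 0.148 and 0.0727 CPM, which rests on 10 counts in the knockdown group. Its log2 fold change was -8.78 (SE 0.57), and it too passed the low-count filter through WT alone.

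Odf2 differed from these in how much remained. Odf2 encodes a coiled-coil protein of the outer dense fibres that also has forms, known as cenexin, in the appendages of the centriole in somatic cells. It had 2861 and 2341 CPM in WT and 275 and 241 CPM in the knockdown, with no overlap of the groups. The log2 fold change was -3.33 (SE 0.37; edgeR, adjusted p = 0.000108), and 9.88% of the WT level was left. GENCODE M21, an annotation on GRCm38, lists 25 transcripts of Odf2 against 1 of Odf1 and 4 of Odf4, and the counts per gene do not separate them. The ratio of Odf2 to Odf1 counts within a library, which no scaling affects, was 8.0 and 10.4 in WT and 2162 and 1420 in the knockdown. The ratio of Odf2 to Odf4 likewise moved from 8.46 and 9.55 to 865 and 1988.

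**Figure D2:**
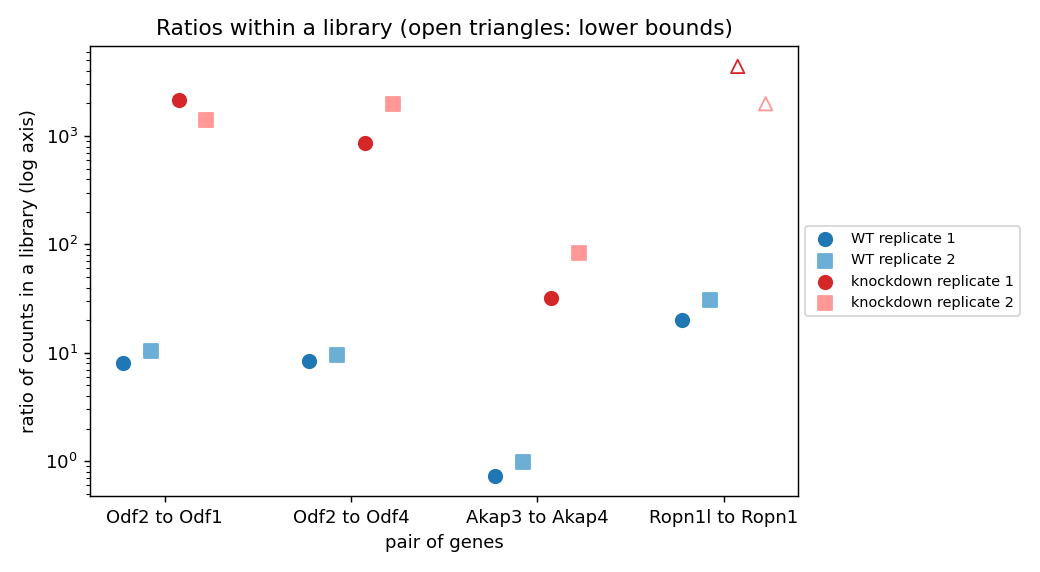
Ratios of the counts of paired genes within each library, on a log axis, with open triangles for lower bounds where the second gene had no count. In all 4 pairs both knockdown libraries lay above both WT libraries, from 0.734 and 0.988 to 32.0 and 82.5 for Akap3 to Akap4. The gene that fell less was set first in each pair, so the rise restates the difference between their falls.

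In the fibrous sheath, Akap4 and Akap3 encode its main structural proteins, which are A-kinase anchoring proteins that bind regulatory subunits of protein kinase A. Akap4 is X-linked and Akap3 lies on chromosome 6. Akap4 had 359 and 212 CPM in WT and 0.0847 and 0.0485 CPM in the knockdown, from 18136 counts in the WT group against 6 in the knockdown group. Its log2 fold change was -11.97 (SE 0.57; edgeR, adjusted p = 4.86e-06). Of 817 X-linked genes tested 16.5% were called lower. Akap3 had 263 and 210 CPM in WT and 2.71 and 4.0 CPM in the knockdown, with a log2 fold change of -6.14 (SE 0.39; edgeR, adjusted p = 6.96e-06). The 2 genes stood at similar counts in WT and apart in the knockdown. The ratio of Akap3 to Akap4 counts was 0.734 and 0.988 in WT and 32.0 and 82.5 in the knockdown, the latter on 4 and 2 counts of Akap4. With 2 libraries a group, the smallest two-sided p of an exact permutation test is 0.333, and such ratios were not tested.

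Fscb, which encodes a calcium-binding phosphoprotein of the fibrous sheath that binds CABYR, had no count in the knockdown. It had 88.7 and 53.7 CPM in WT, from 4523 counts, and was at least 2141-fold lower, against a floor of 3 counts over the knockdown group (edgeR, adjusted p = 7.87e-06).

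The promoters of these sheath genes are shown because Akap3 and a listed start of Akap4 have a stretch of sequence in common just before the start site. RefSeq promoters of GRCm38.p6, an older build than the mm39 of the counts, run from 250 bases before to 50 bases after the start site, and 8 of the 9 names had an entry. Capitals mark the run of 20 bases shared by Akap3 and Akap4 and each match to TGATGTCA, a sequence close to the cyclic AMP response element (CRE), which is the site of CREM, an activator of spermatid genes.
Akap3, chr6:126852848-126853147, plus strand: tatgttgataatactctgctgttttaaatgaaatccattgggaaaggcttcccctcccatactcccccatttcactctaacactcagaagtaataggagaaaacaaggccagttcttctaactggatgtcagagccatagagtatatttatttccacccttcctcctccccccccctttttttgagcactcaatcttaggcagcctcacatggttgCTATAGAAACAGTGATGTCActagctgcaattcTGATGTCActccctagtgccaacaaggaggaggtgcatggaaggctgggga
Akap4, chrX:7067265-7067564, plus strand: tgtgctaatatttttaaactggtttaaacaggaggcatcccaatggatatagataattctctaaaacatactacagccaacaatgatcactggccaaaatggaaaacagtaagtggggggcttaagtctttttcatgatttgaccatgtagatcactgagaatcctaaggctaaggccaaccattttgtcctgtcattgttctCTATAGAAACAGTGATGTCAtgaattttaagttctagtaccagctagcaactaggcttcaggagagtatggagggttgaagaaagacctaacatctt
Fscb, chr12:64474849-64475148, minus strand: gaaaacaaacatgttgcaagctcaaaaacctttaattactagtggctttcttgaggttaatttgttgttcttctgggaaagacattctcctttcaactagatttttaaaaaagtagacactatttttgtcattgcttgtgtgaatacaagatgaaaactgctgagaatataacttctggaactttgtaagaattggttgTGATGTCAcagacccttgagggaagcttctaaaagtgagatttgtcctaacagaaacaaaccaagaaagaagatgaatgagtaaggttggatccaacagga
The shared run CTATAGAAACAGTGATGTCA begins at position -34 from the start site in Akap3 and -47 in Akap4, and of the 32851 promoters listed, 2 hold it, those of Akap3 and Akap4. The next longest run shared by a pair of the genes had 14 bases. Another listed start of Akap4, not printed here, had neither the run nor TGATGTCA in its window. TGATGTCA lay at positions -22 and -1 in Akap3, -35 in Akap4 and -51 in Fscb. The matches at -22 in Akap3 and -35 in Akap4 are the end of the shared run, so they are not separate from it. With a search of either strand, TGATGTCA was in 3 of the 8 genes, counting any listed start, and in 3.62% of all promoters. A gene with more listed starts has more windows to match in, so these shares are not strictly alike. This motif and the shared run were looked for after the sequences had been read. The full CRE TGACGTCA, held by 1.79% of promoters, and the TATA box TATAAA, held by 13.6%, were in none of the 8. The heat shock element core GAANNTTC was in Fscb alone, as GAAGCTTC at position -30, and 7.86% of promoters hold it. The first 5 bases of the full CRE, TGACG, were in Odf2 and in 20.8% of promoters, and the MYB site AACNGNC was in Akap3, Odf2, Odf4, Ropn1 and Ropn1l and in 32.8%. These matches describe letters in a window and not binding, and Odf1 was not part of the search.

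**Figure D3:**
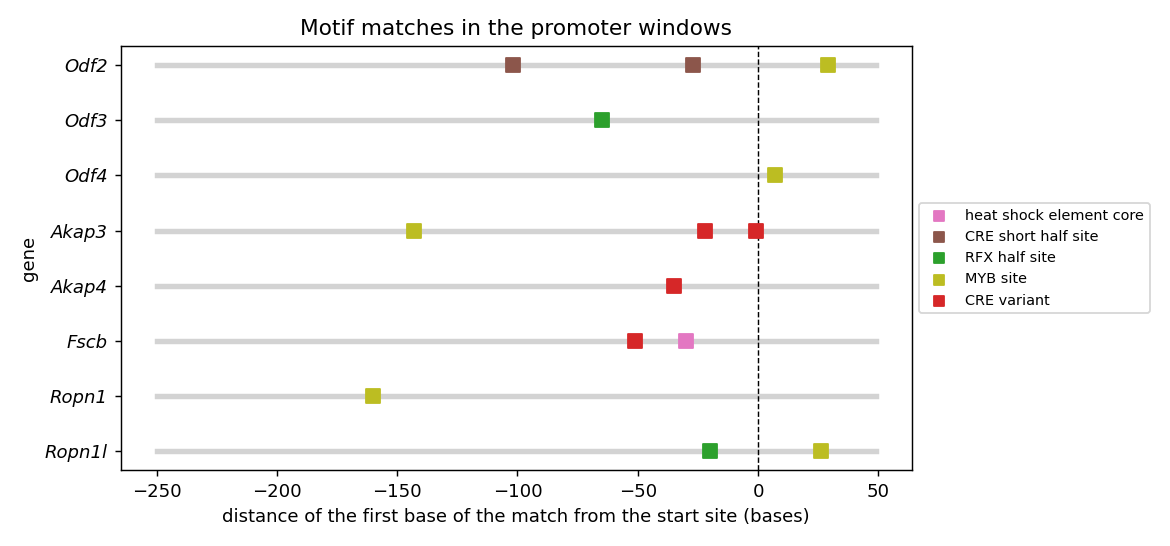
Position of each motif match relative to the start site (dashed line), in bases, for the promoter of each gene, with grey bars for the window. The most upstream start that has a match was used for Odf2, and the printed start for Akap4. The CRE-like matches begin within 51 bases before the start in Akap3, Akap4 and Fscb, and the match at -1 in Akap3 runs across the start.

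Ropn1 and Ropn1l are related genes whose proteins, ropporin and ropporin-1-like, share a docking domain like that of the protein kinase A regulatory subunits and bind AKAP3. They ended far apart. Ropn1 stood at 89.3 and 38.5 CPM in WT. Neither knockdown library held a read of it, so it was at least 1943-fold lower (edgeR, adjusted p = 1.62e-05). No count in either knockdown library was the case for 5.76% of all genes tested. Ropn1l had 1774 and 1173 CPM in WT and 279 and 144 CPM in the knockdown, so that the groups did not overlap and 14.4% of the WT level was left. Its log2 fold change was -2.80 (SE 0.43; edgeR, adjusted p = 0.000594). The ratio of Ropn1l to Ropn1 counts was 19.9 and 30.4 in WT and at least 4388 and 1986 in the knockdown, with the floor of 3 counts taken per library here. The ropporin-1-like protein is known from motile cilia as well as sperm. Its promoter is shown because it holds GTTGCC, a site of RFX factors, which act on genes of cilia.
Ropn1l, chr15:31453640-31453939, minus strand, the site in capitals: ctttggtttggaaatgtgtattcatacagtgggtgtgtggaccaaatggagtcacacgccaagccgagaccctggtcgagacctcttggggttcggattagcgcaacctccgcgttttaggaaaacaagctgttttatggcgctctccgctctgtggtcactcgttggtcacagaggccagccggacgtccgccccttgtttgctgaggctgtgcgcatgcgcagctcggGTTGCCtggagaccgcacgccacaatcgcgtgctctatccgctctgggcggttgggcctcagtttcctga
The match lay at position -20. Odf3 had a match at -65, the other 6 had none, and 12.5% of all promoters hold GTTGCC on either strand.

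Levels were also compared per length, as CPM per kilobase of the longest GENCODE M21 transcript, which need not be the expressed form. Odf2 has 25 listed transcripts and Ropn1l 1. On this measure Ropn1l had the highest WT level of the 9 (1854 and 1226), followed by Odf2 (667 and 546). Odf1 (323 and 204) and Odf4 (299 and 217) came next and overlapped. Akap4 (119 and 70.2), Akap3 (83.5 and 66.5) and Ropn1 (77.9 and 33.6) overlapped each other, Cimap1a (37.5 and 24.9) overlapped Ropn1, and Fscb (26.4 and 16.0) overlapped Cimap1a. In the knockdown Ropn1l stood at 291 and 151 and Odf2 at 64 and 56.1 CPM per kilobase, Akap3 at 0.860 and 1.27, and none of the others above 0.281. Odf2 and Ropn1l together made up 75.6% and 78.1% of the summed CPM of the 8 genes in WT (6131 and 4498 CPM) and 99.4% and 98.9% in the knockdown (557 and 390 CPM).

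The WT libraries were not alike for these genes. All 8 were lower in WT replicate 2 than in WT replicate 1, with log2 ratios (CPM plus 0.5) from -0.29 for Odf2 to -1.20 for Ropn1 and a median of -0.63, where the median of all tested genes was -0.03. The spermatid markers had a median of -1.01 and the pachytene markers of -0.33, whereas the Sertoli markers had 0.91 and the Leydig markers 2.90. Whether cell content accounts for this was not tested. Between the knockdown libraries, Ropn1l had a log2 ratio of replicate 2 to replicate 1 of -0.95 and Akap3 of 0.49. Without WT replicate 1 all 8 genes were still called lower, and Ropn1l, the least changed, had log2 fold changes from -3.61 to -2.38 over all the alternatives.

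**Figure D4:**
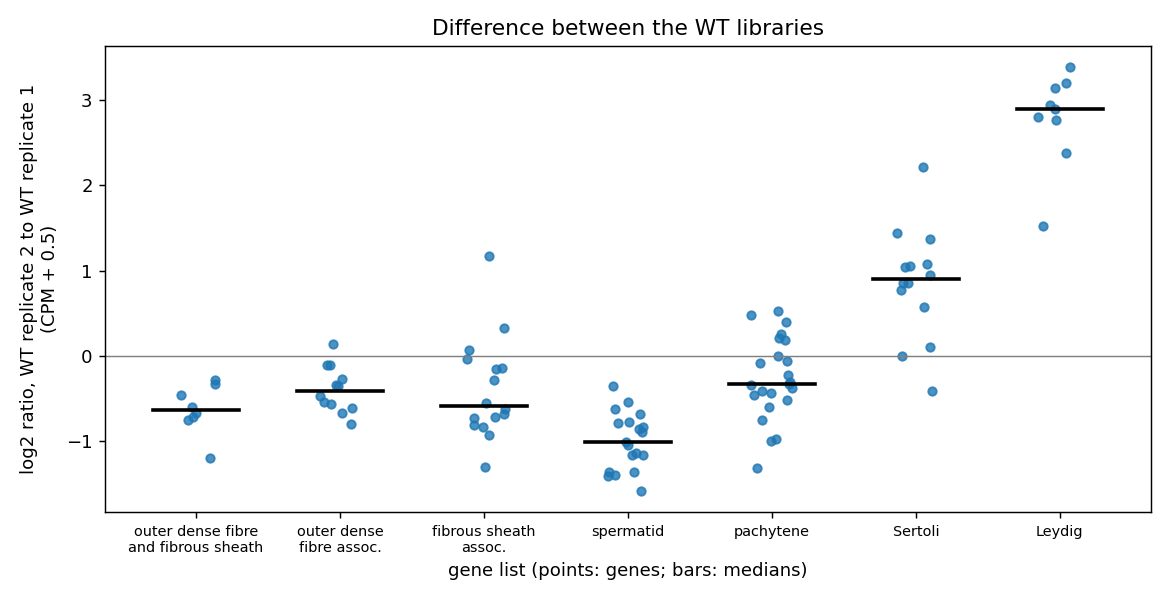
Log2 ratio of WT replicate 2 to WT replicate 1 (CPM plus 0.5), with a point for each gene and a bar at each list's median. The 8 outer dense fibre and fibrous sheath genes have a median of -0.63, between the spermatid markers at -1.01 and the pachytene markers at -0.33.

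Most genes listed as associated with the outer dense fibres fell as well. Of 12 tested, 10 fell, none rose, and Odf2l and Klc3 did not pass. Cimap1c and Tssk4, among those that fell, would not have passed the filter on low counts without their WT libraries. A gene of that kind could only be called lower. Over the whole table, 33.5% of tested genes were called lower and 27.4% higher. The median log2 fold change was -3.99, against -0.12 over all tested genes, and Cimap1d had no count in any library. Oaz3, a testis antizyme, went from 182 and 123 CPM to 0.699 and 0.897 CPM. Ccdc42, needed for building the tail, had 183 and 144 CPM in WT against 1.72 and 1.33 CPM. Tssk4, a kinase that acts on ODF2, had 43.3 and 29.6 CPM against 0.127 and 0.582 CPM. For Tssk4 the log2 fold change of -6.69 became -5.88 without knockdown replicate 1 and -8.12 without knockdown replicate 2. Cimap1c, of the same family as Cimap1a, had 6 counts in knockdown replicate 1 and 0 in replicate 2, and its log2 fold change of -9.0 (SE 0.87) rests on the former library. It was -8.09 without replicate 2, and without replicate 1 no count was left. Spag4, a SUN domain protein that binds ODF1, had a log2 fold change of -4.85 (SE 0.43) and the tektin gene Tekt4 of -4.54 (SE 0.40; edgeR, adjusted p = 2.85e-05). Spag5, which binds ODF1 and is also a spindle protein of dividing cells, fell least (-0.77, SE 0.29; edgeR, adjusted p = 0.0417), and its call was lost under 5 alternatives. Odf2l, a relative of Odf2 at the centriole, had 91.7 and 76.0 CPM in WT and 72.7 and 63.2 CPM in the knockdown (log2 fold change -0.30, SE 0.29).

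Of 16 tested genes of proteins held in the fibrous sheath 12 fell, 1 rose and 3 did not pass, with a median of -3.53. Aldoart1 and Akap14, among those that fell, passed the filter on low counts through WT alone, so they could only be called lower. For all tested genes the median was -0.12, with 33.5% called lower and 27.4% higher. The glycolytic enzymes of the tail were among those that fell. Pgk2 went from 400 and 271 CPM to 2.27 and 1.43 CPM, Gapdhs from 316 and 176 CPM to 3.30 and 4.14 CPM, and Aldoart2 from 129 and 80.0 CPM to 1.16 and 0.800 CPM. For Aldoart1 the WT libraries held 1863 counts and the knockdown libraries 1, and the scaled ratio was 2645 (95% counting interval 475 to 104473). Both Aldoart genes are retrogene copies of Aldoa, so their counts are less certain. Cabyr, a calcium-binding partner of Fscb and ropporin, had a log2 fold change of -5.89 (SE 0.46) and Tcp11 of -5.01 (SE 0.37; edgeR, adjusted p = 1.39e-05). Akap14, a further anchoring protein of the sheath, was read at 5.93 and 2.09 CPM in WT but not in the knockdown (at least 123-fold lower).

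The subunits of protein kinase A, which the sheath anchors but most cells express, were divided. Prkacb, a catalytic subunit, rose from 4.89 and 11.6 CPM to 37.4 and 51.6 CPM (log2 fold change 2.43, SE 0.47; edgeR, adjusted p = 0.00194), a call lost with scaling by genes of cohesin and the synaptonemal complex (1.73, adjusted p = 0.0547). Its log2 fold change was 3.21 when WT replicate 2 was left out. Prkaca, the other catalytic subunit, fell (-1.11, SE 0.29; edgeR, adjusted p = 0.00799), a call lost with library totals only (-0.67, adjusted p = 0.0589) and without WT replicate 1 (-1.04, adjusted p = 0.0793). The regulatory subunit genes Prkar1a (0.35, SE 0.30) and Prkar2a (-0.70, SE 0.43) did not pass. Prkar1a passed as higher with library totals only (0.78; edgeR, adjusted p = 0.0295).

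Of 11 tested genes for anchoring proteins outside the fibrous sheath, 3 fell, 3 rose and 5 did not pass, with a median of 0.32. These shares were near those of all tested genes (33.5% lower and 27.4% higher), so the counts are no result about this family. Akap6, of the nuclear envelope in muscle, had 6.80 and 6.67 CPM in WT against 0.254 and 0.509 CPM in the knockdown. Akap1, of the outer mitochondrial membrane, fell by 2.07 on the log2 scale (SE 0.33) and Akap12, a scaffold at the cell membrane, by 1.71 (SE 0.34). Akap13 rose from 11.5 and 25.1 CPM to 64.5 and 140 CPM (log2 fold change 2.48, or 3.17 with WT replicate 2 left out and 1.81 with knockdown replicate 2 left out). Akap9, of the Golgi and centrosome, rose from 35.1 and 44.9 CPM to 78.1 and 147 CPM. Akap8l, a nuclear protein, had a log2 fold change of 0.75 (SE 0.29; edgeR, adjusted p = 0.0475). Its call was lost under 8 of the 11 alternatives. With scaling by genes of cohesin and the synaptonemal complex, Akap13 alone was still called higher, Akap9 stood at 0.88 (adjusted p = 0.209) and Akap8l at 0.00.

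**Figure D5:**
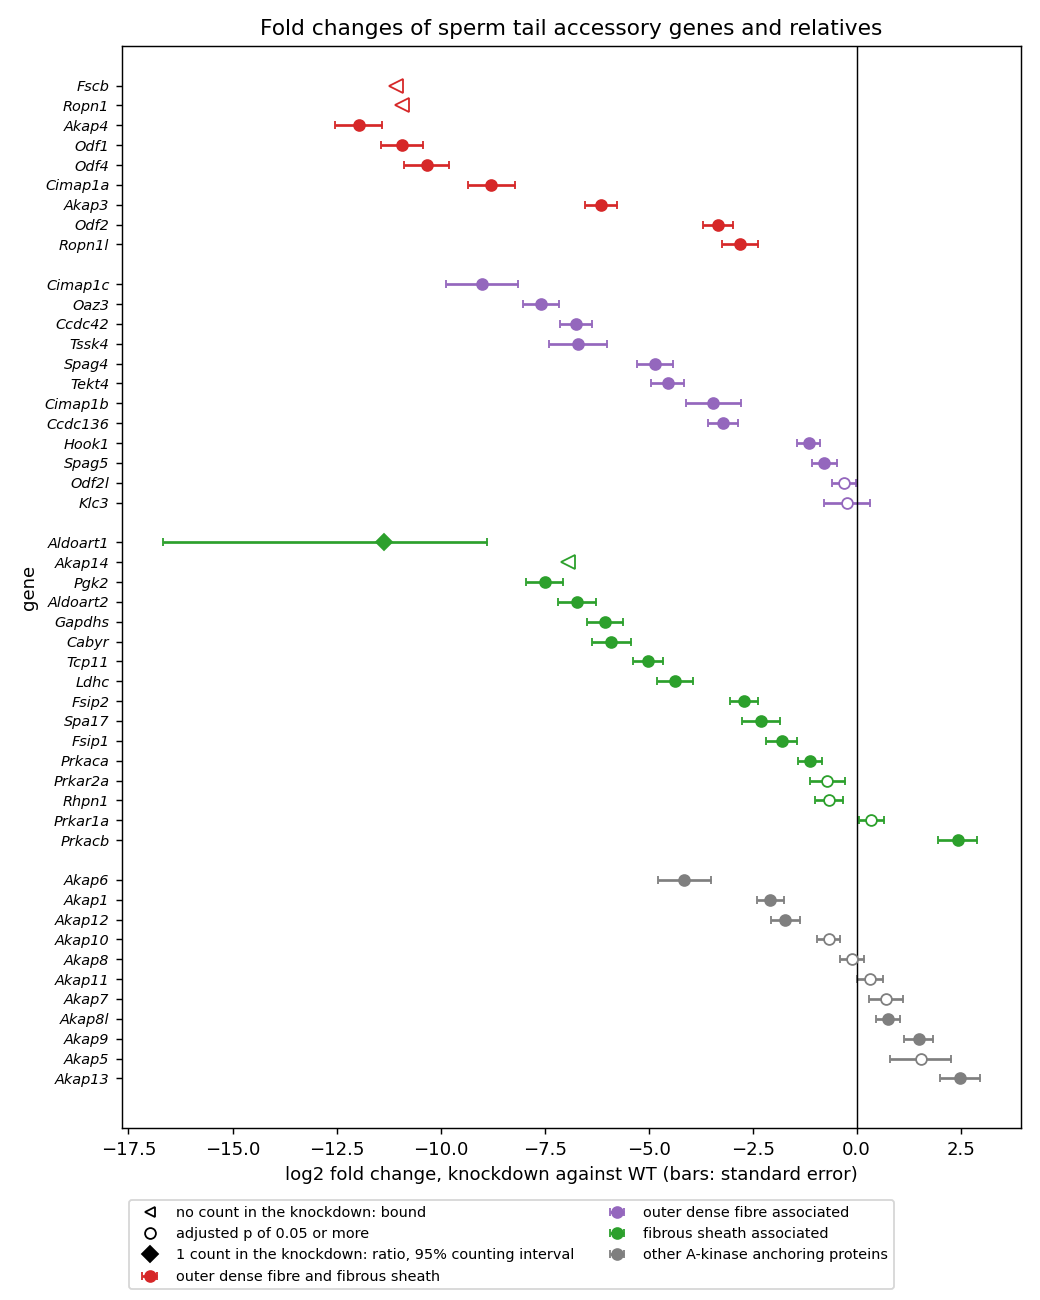
Log2 fold change of the knockdown against WT for each gene of the 4 lists, with bars for the standard error, open circles for an adjusted p of 0.05 or more, triangles for the bound of a gene without a count in the knockdown and a diamond with its 95% counting interval for Aldoart1. The 8 genes of the set and Cimap1a all lie below zero, and the other anchoring proteins lie on both sides of it.

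Genes with a profile like that of Odf1, Akap4 or Odf2 over the 4 libraries were ranked by Euclidean distance between log2 profiles (CPM plus 0.5, each centred on its mean) among genes within 2-fold of the same mean level. With 4 libraries this measure mostly follows the difference between the groups. Tcp10b, which has close copies, was nearest to both Akap4 (distance 0.216 of 3066 candidates) and Odf1 (0.257 of 3030). Cmtm2b, Pebp4 and Slco6c1 were among the 5 nearest to both, Toporsl among those of Odf1 and Tnp1, a transition protein of spermatids, among those of Akap4. Cmtm2b had 454 and 343 CPM in WT and 0.318 and 0.242 CPM in the knockdown. Ccdc136, an acrosomal protein that was also in the list of fibre-associated genes, was nearest to Odf2 (distance 0.174 of 85 candidates), with 2030 and 1885 CPM in WT and 228 and 194 CPM in the knockdown. Ybx3, Phkg2, Phf7 and Asrgl1 followed.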

How the data were processed

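Polyadenylated RNA of cells labelled as pachytene spermatocytes was sequenced in 2 WT and 2 Hsf5 knockdown libraries. The authors deposited raw read counts per gene. The build was mm39 and the tools included HISAT2 2.2.1 and Trim Galore 0.6.10, with featureCounts 1.5.3 and DESeq2 1.46.0, per the submitters' processing notes. The annotation, the strand setting and the handling of multi-mapping reads were not stated, so overlapping and copied genes are less certain. The labels call the replicates biological and name no animals, and p-values refer to the spread between these 4 libraries.

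Counts were fitted over the whole table in R 4.3.3 with edgeR 4.0.16 (filterByExpr, TMM, quasi-likelihood F test, Benjamini-Hochberg adjustment over 23594 genes, threshold 0.05, no minimum fold). Standard errors were approximated from the fold change and its F statistic. Genes without a count in the knockdown were bounded with 3 counts over the group (0.0339 CPM). Bounds and intervals cover counting error only. Chi-square per degree of freedom was 57.0 between WT and 123 between knockdown replicates, so each library counts as 1 replicate. In counts simulated for this comparison (5 draws of 23426 genes, 200 changed), 2.16% of genes changed 2-fold and 38.7% of those changed 4-fold were called, and 4.57% of calls were false. The draws changed far fewer genes, and by smaller folds, than were called in the data. These shares therefore do not carry over to the fit of the data.

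The genes, lists and tests were chosen with earlier results of these data known. Named genes are the 9 set names, Hsf5, and in each wider list up to 6 per direction past the threshold with the smallest p. Of each marker list, the 2 with the highest mean and any at 0 are named. For Odf1, Akap4 and Odf2, the 5 nearest profiles among candidates outside the set are named. Sycp1, Odf2l, Klc3, Spag5, Rhpn1, Akap10, the kinase subunits and Akap14 were added after their values were seen. Odf3, Odf3b, Odf3l1 and Odf3l2 were matched by their current Cimap symbols. Alternatives were DESeq2 size factors, library totals, scaling on synaptonemal complex and cohesin genes, a filter at a mean of 1 CPM or none, the Wald test of DESeq2 1.42.0, a block for the replicate number, and leaving out each library. Counting Cimap1a with the set was chosen after seeing the data.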

Additional observations from a re-analysis of the deposited data

How the results depend on the processing

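All 8 outer dense fibre and fibrous sheath genes were called lower under each of the 11 alternatives, 88 values in all, and none was called higher. Their median of -10.62 moved by more than the spread between replicates to -10.20 with library totals only and to -11.41 scaled on synaptonemal complex and cohesin genes, where the median of all genes was 0.31 and -0.84. It ran from -10.87 to -10.33 without 1 of the libraries, where the lone library of a group is assumed to vary like the other group, and was -10.33 with Cimap1a counted in, which gives 9 lower. With library totals only 2 fibrous sheath associated genes and 5 other anchoring protein genes were higher, and with the scaling on synaptonemal complex and cohesin genes 0 and 1, with 2894 of all genes higher in place of 6467 (9024 lower in place of 7902). Library totals gave 6680 lower and 8121 higher. With the replicate number as a block (replicate block), all 8 genes were lower with a median of -10.64, 8351 of all genes were lower, and Rhpn1 (-0.68, adjusted p = 0.0368) and Akap10 (-0.67, adjusted p = 0.0206) passed as lower. The labels share replicate numbers without saying what a number marks. Deviations of same-numbered libraries correlated at 0.155 across genes, with 2 pairs. Levels under 0.0339 CPM in the knockdown are below what 3 counts can show.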
